A study of Phlebiopsis gigantea with 8 samples.

Results

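The multicopper oxidases (MCOs) of *Phlebiopsis gigantea*, a basidiomycete that colonizes freshly cut conifer wood, were taken as every gene model whose putative function begins with MCO or mentions a laccase or multicopper oxidase, or whose InterPro description does so. There were 6 such models among 11892 in the expression table: Phlgi1_129839, Phlgi1_110266, Phlgi1_29483, Phlgi1_32068, Phlgi1_77659, which is annotated as a Fet3-type ferroxidase, and Phlgi1_38701, annotated as a fragment. Transcripts were measured by RNA-seq in 8 cultures harvested after 5 days in 250 ml of basal salts. The carbon source of 3 cultures (NELP) was milled loblolly pine that still held its extractives, with acetone added and dried off. For 3 others (ELP) acetone had first been used to strip the wood of its extractives, and glucose was the only carbon source of 2 cultures (Glc). All are cultures of the same fungus, and each gave 1 library.

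MCOs hold a set of copper ions that take electrons from a substrate and pass them to oxygen, which is reduced to water. Laccases, the best known MCOs of white-rot fungi, oxidize phenols, among them those of lignin, whereas ferroxidases of the Fet3 type oxidize ferrous iron at the plasma membrane and hand the ferric ion to the permease FTR1, which carries it into the cell. Some fungal MCOs have both activities. Iron enters the same pathway through ferric reductases, which make the ferrous ion that Fet3 uses, and Fet3 itself needs copper.

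Values are the authors' RPKM, reads scaled to gene length and library size, so that levels of different genes can be compared. The depth in reads is unknown, and the summed RPKM ran from 741008 to 890849 per library. Fold changes are on the log2(RPKM + 0.5) scale and come from 1 limma fit over the 3 media, with p adjusted by the Benjamini-Hochberg method over the 10999 genes that averaged at least 1 RPKM. A gene was called at an adjusted p under 0.05. The 2 Glc libraries lay further apart than wood libraries of 1 medium, since the median standard deviation of a gene's log2 value was 0.19 among NELP, 0.22 among ELP and 0.51 among Glc libraries. The median tested gene was higher on wood by 0.54 (NELP) and 0.60 (ELP) on the log2 scale than on Glc. Values of the MCOs against Glc are therefore given with a Glc library left out where that changes a call or a direction. Such a fit sets the wood libraries against 1 Glc library, which is assumed to vary as the wood libraries do, since the spread then comes from NELP and ELP alone, so its p says nothing of the spread between Glc cultures. List counts are also given after rescaling the libraries to equal median ratios.

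Of the 6 models, 5 were tested. Phlgi1_38701, the fragment, is listed at 0 in all 8 libraries. Against Glc, 1 MCO was called higher and 1 lower on either wood, but not the same pair: Phlgi1_32068 was higher and Phlgi1_129839 lower in NELP, and Phlgi1_32068 was higher and Phlgi1_77659 lower in ELP. Over all tested genes, 29.5% were called higher and 3.67% lower in NELP than in Glc, and 37.3% higher and 5.14% lower in ELP than in Glc, where 1 of 5 MCOs in a direction is 20%. Fewer MCOs were called in NELP against Glc with any wood library left out. The count was 0 without NELP 1, NELP 2, NELP 3 or ELP 2, and 1 without ELP 1 or ELP 3. Without a NELP library, the log2 fold change ran from -2.40 to -1.9996 for Phlgi1_129839 and from 0.88 to 1.07 for Phlgi1_32068. Without an ELP library these genes kept their values of -2.14 and 0.98. The share of all tested genes called in these fits is not given. The lost calls are therefore not read as dependence on single libraries. The median log2 fold change of the 5 MCOs was -1.10 in NELP against Glc, where that of all tested genes was 0.54, and 0.21 in ELP against Glc, where that of all tested genes was 0.60. Fits of the 2 media compared alone, with fewer libraries, called 0 MCOs against Glc on either wood. The share of all tested genes that they called was not counted, so this is not read as a result about the MCOs. At an unadjusted p under 0.05 there were 2 of 5 MCOs on each wood. Over all tested genes 38.4% in NELP and 42.4% in ELP had such a p in these fits. The adjusted p of these MCOs were 0.098 and 0.083 for Phlgi1_32068 and Phlgi1_129839 in NELP, and 0.056 for both Phlgi1_32068 and Phlgi1_77659 in ELP. Both comparisons use the same Glc libraries.

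Between the woods no MCO was called in this fit, nor were many other genes: 0.00909% of tested genes (1 gene) were called higher and 0% lower in NELP than in ELP. At an unadjusted p under 0.05, 1 of the 5 MCOs (Phlgi1_129839) and 1798 of all tested genes differed. A fit of the 6 wood libraries alone, whose spread owes nothing to Glc, called 6.12% of genes higher and 4.28% lower in NELP than in ELP, and among the MCOs it called Phlgi1_129839, as lower. The median log2 fold change of NELP over ELP was -0.18 for the 5 MCOs and -0.07 for all tested genes.

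**Figure D1:**
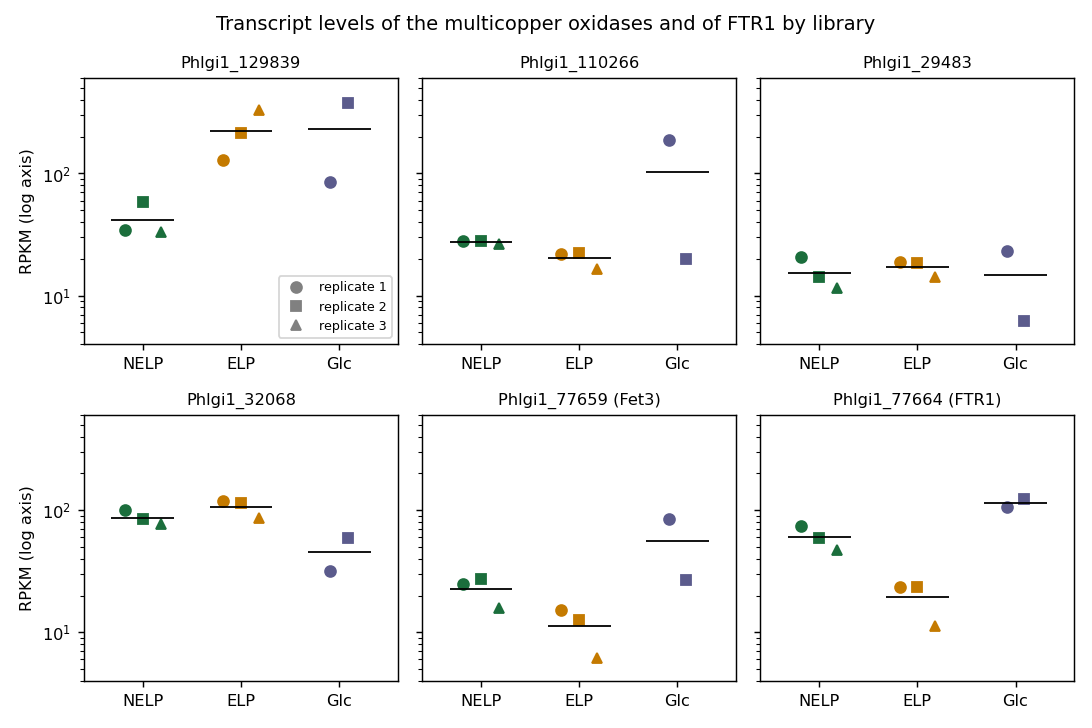
RPKM of the 5 expressed multicopper oxidases and of the iron permease FTR1, on a log axis, in each NELP, ELP and Glc library; symbols give the replicate number and bars the mean of each medium. Phlgi1_129839 is at 33.1 to 58.4 RPKM in the NELP libraries and at 85.1 to 381 RPKM in the others, while both Phlgi1_110266 and Phlgi1_77659 have 1 Glc library far above the other.

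Phlgi1_129839 had the largest difference between the woods among the MCOs. Its annotation likens it to MCO4 of *Phanerochaete chrysosporium*, from the group of MCOs in which laccase and ferroxidase activity overlap. Its level was 34.2, 58.4 and 33.1 RPKM in NELP, 129.5, 213 and 330.0 RPKM in ELP, and 85.1 and 381 RPKM in Glc. All NELP libraries lay below all ELP and all Glc libraries, and the ELP libraries lay within the span of the Glc libraries.

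On average Phlgi1_129839 had 41.9 ± 14.3 RPKM in NELP (SD, n = 3) and 224 ± 101 RPKM in ELP (SD, n = 3), a ratio of means of 0.187. The log2 fold change of NELP over ELP was -2.35 ± 0.58 (SE), the fifth lowest of the 10999 genes, with an adjusted p of 0.15 in limma. In the fit of the wood libraries alone the same fold change had an SE of 0.37 and an adjusted p of 0.017. The study singled out this gene on these same libraries, so neither value is independent evidence that it differs. The study also reported more of its protein in ELP than in NELP culture filtrates, a separate measurement that was not used here. Leaving out any wood library kept the fold change between -2.70 and -2.02.

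Against Glc, Phlgi1_129839 was lower in NELP, with a log2 fold change of -2.14 ± 0.65 (SE) and an adjusted p of 0.038. With 1 Glc library left, and the spread taken from the woods, the value was -3.22 without Glc 1 (adjusted p = 0.0064) and -1.06 without Glc 2, where Phlgi1_129839 is highest (adjusted p = 0.11). It was also lost without any NELP library or without ELP 2 (adjusted p from 0.065 to 0.10), and held after rescaling (-2.75, adjusted p = 0.027). In ELP against Glc the fold change was 0.21 ± 0.65 (SE), with an adjusted p of 0.81. Its direction turned to -0.87 without Glc 1 and to -0.45 after rescaling, and the ratio of mean RPKM was 0.961, so no direction can be given for ELP against Glc.

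Phlgi1_110266 lies next to Phlgi1_129839 in the genome: their alternative gene models follow each other directly in the genome's deposited gene list, though the pair had very different profiles. Its level was 28.0, 27.9 and 26.7 RPKM in NELP, 21.8, 22.2 and 16.7 RPKM in ELP, and 187 and 19.8 RPKM in Glc. The NELP libraries were within 1.05 times of each other and all above the ELP libraries, but Glc 1 was 9.45 times as high as Glc 2. Only 2.89% of tested genes differed more between the Glc libraries on the log2 scale.

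The log2 fold change of Phlgi1_110266 was 0.45 ± 0.68 (SE) in NELP over ELP (adjusted p = 0.78), -1.14 ± 0.77 in NELP over Glc (adjusted p = 0.27) and -1.59 ± 0.77 in ELP over Glc (adjusted p = 0.13). No direction against Glc survives the choice of Glc library: without Glc 1 the values were 0.47 for NELP and 0.02 for ELP, and without Glc 2 they were -2.74 and -3.19.

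Set against each other within a library, which removes any scaling of the library, the transcripts of the neighbours Phlgi1_129839 and Phlgi1_110266 gave ratios of 1.22, 2.09 and 1.24 for the NELP libraries. They gave 5.95, 9.58 and 19.8 for the ELP libraries, and 0.455 and 19.3 for the Glc libraries. The NELP libraries were all below the ELP libraries, and the Glc libraries lay outside the range of NELP on opposite sides. The mean log2 ratio was 0.55 ± 0.44 over the NELP and 3.35 ± 0.87 over the ELP libraries (SD, n = 3 each), a difference of -2.80 with an exact two-sided permutation p of 0.10, the smallest that 3 libraries against 3 can give.

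Phlgi1_32068 had the highest level of the MCOs in NELP. Its annotation likens it to MCO2 of *Phanerochaete chrysosporium*, and by the study's alignment it is closer to MCO1 of that fungus, a strong ferroxidase, than to MCO4. Its level was 99.8, 83.9 and 76.3 RPKM in NELP, 119.8, 114 and 86.6 RPKM in ELP, and 31.9 and 58.9 RPKM in Glc. Every wood library was above both Glc libraries, and the woods overlapped.

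The log2 fold change of Phlgi1_32068 over Glc was 0.98 ± 0.30 (SE) in NELP, with an adjusted p of 0.041, and 1.28 ± 0.30 (SE) in ELP, with an adjusted p of 0.014. Between the woods it was -0.29 ± 0.27 (adjusted p = 0.63). Both calls were lost after rescaling (0.38 and 0.61 in NELP and ELP, adjusted p = 0.33 and 0.12), when 6.57% of tested genes were called higher and 7.08% lower in NELP than in Glc, and 10.6% higher and 11.4% lower in ELP than in Glc. The call for NELP was also lost without any library other than Glc 2 (adjusted p from 0.052 to 0.13, the last without Glc 1). Against Glc 2 alone, the value for ELP was 0.84.

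Phlgi1_29483 was the lowest of the expressed MCOs in NELP and Glc, and its annotation likens it to an enzyme of *Phanerochaete flavido-alba* with laccase activity, but does not class it as a canonical laccase, since its signature motifs are nearer to those of other MCOs. It stood at 20.5, 14.3 and 11.5 RPKM in NELP, 18.8, 18.6 and 14.2 RPKM in ELP, and 23.0 and 6.25 RPKM in Glc. The 3 media overlapped. Its log2 fold changes were 0.30 ± 0.50 in NELP over Glc, 0.48 ± 0.50 in ELP over Glc and -0.18 ± 0.45 in NELP over ELP (SE), with adjusted p of 0.65, 0.46 and 0.88, and both values against Glc changed sign without Glc 2 (-0.60 for NELP, -0.42 for ELP) or after rescaling. Against Glc 2 alone, where it is lower than in Glc 1, they were 1.20 and 1.38, each past the threshold with the spread of the woods standing in for that of Glc.

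**Figure D2:**
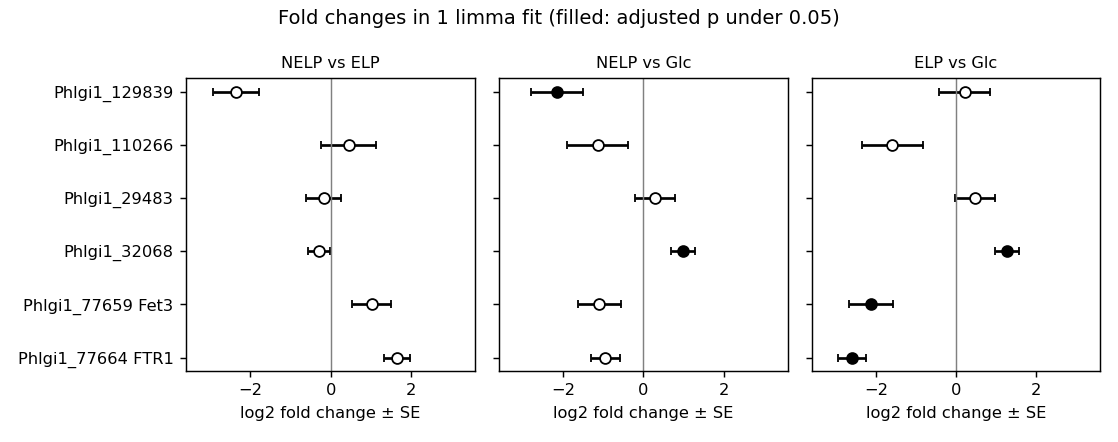
Log2 fold change on the log2(RPKM + 0.5) scale, with its standard error, of the 5 tested multicopper oxidases and FTR1 in NELP over ELP, NELP over Glc and ELP over Glc; filled points passed an adjusted p of 0.05. The points of Phlgi1_129839 are at -2.35, -2.14 and 0.21, and those of FTR1 at 1.65, -0.94 and -2.59.

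Phlgi1_77659, the Fet3-type ferroxidase, is the partner of the permease FTR1 in high-affinity iron uptake, and both had their lowest mean in ELP and their highest in Glc. Its level was 24.7, 27.4 and 15.7 RPKM in NELP, 15.1, 12.5 and 6.18 RPKM in ELP, and 84.3 and 26.8 RPKM in Glc. All ELP libraries were below all NELP libraries, narrowly, and below both Glc libraries, and NELP overlapped Glc.

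The log2 fold change of Phlgi1_77659 was -2.12 ± 0.54 (SE) in ELP over Glc, with an adjusted p of 0.018, and -1.10 ± 0.54 (SE) in NELP over Glc, with an adjusted p of 0.15. Against Glc 2 alone the first was -1.30 and not called (adjusted p = 0.063, with the spread of the woods). Against Glc 1 alone, in which the gene is highest, the values were -2.94 for ELP and -1.91 for NELP, and there NELP too passed the threshold on the spread of the woods. In NELP over ELP it was 1.02 ± 0.49 (SE), with an adjusted p of 0.34, and 0.095 in the fit of the wood libraries alone.

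The gene of FTR1, Phlgi1_77664, directly follows that of Fet3 in the gene list of the genome. It had 74.0, 59.0 and 47.2 RPKM in NELP, 23.7, 23.6 and 11.3 RPKM in ELP, and 106 and 123 RPKM in Glc. The media did not overlap anywhere, with ELP lowest, NELP between and Glc highest.

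FTR1 was lower in ELP than in Glc, with a log2 fold change of -2.59 ± 0.36 (SE) and an adjusted p of 0.0033, and the value was -2.69 against Glc 2 alone and -2.49 against Glc 1 alone. In NELP over Glc the fold change was -0.94 ± 0.36 (adjusted p = 0.075), and 0.027 was the adjusted p after rescaling, at -1.55. In NELP over ELP it was 1.65 ± 0.32 (adjusted p = 0.097), and 0.025 was the adjusted p in the fit of the wood libraries alone. Within a library the ratio of Fet3 to FTR1 transcript was 0.334, 0.465 and 0.333 for NELP libraries, 0.639, 0.531 and 0.545 for ELP libraries, and 0.792 and 0.219 for Glc libraries, so that FTR1 exceeded Fet3 in all 8 libraries.

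By range alone, 3 of the 5 MCOs had NELP and ELP libraries that did not overlap: Phlgi1_110266 and Phlgi1_77659 were higher in NELP, and Phlgi1_129839 was lower. Over all tested genes, NELP was higher without overlap in 16.7% and lower without overlap in 22.1%.

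**Figure D3:**
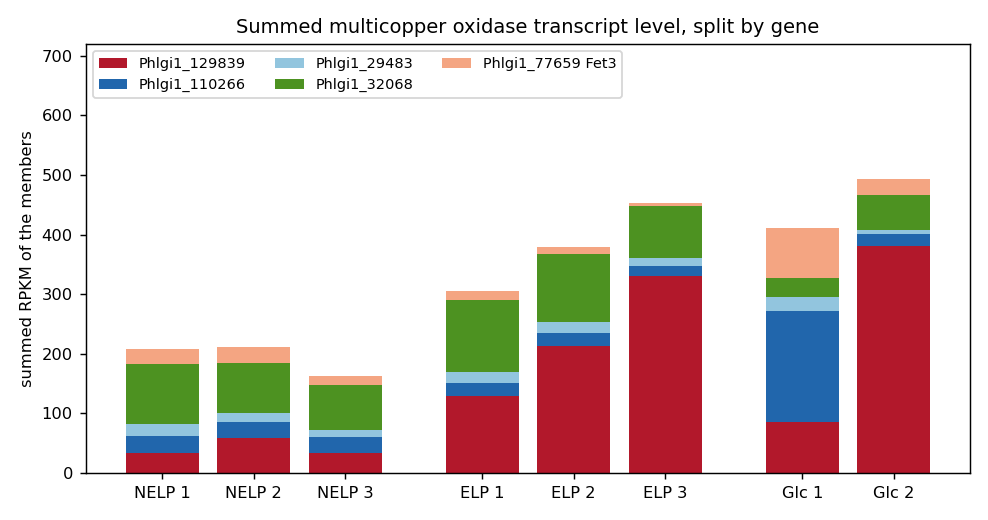
Summed RPKM of the multicopper oxidases in each library, split by gene; bars start at 0, and Phlgi1_38701, listed at 0, adds nothing. The NELP bars are 163 to 212 RPKM high and the others 305 to 493 RPKM high, and Phlgi1_129839 makes up 16.5 to 27.5% of the NELP bars and 42.5 to 72.7% of the ELP bars.

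Summed over the members, MCO transcripts reached 207, 212 and 163 RPKM in NELP, 305, 379.7 and 454 RPKM in ELP, and 411 and 493 RPKM in Glc. All NELP sums were below all others. Phlgi1_129839 took 16.5, 27.5 and 20.3% of the NELP sums, 42.5, 56.0 and 72.7% of the ELP sums, and 20.7 and 77.3% of the Glc sums. In NELP the largest share was instead that of Phlgi1_32068, at 48.2, 39.6 and 46.7%, and in Glc 1 that of Phlgi1_110266, at 45.5%.

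The order of the MCOs by mean level differed between the media. In NELP it was Phlgi1_32068 with 86.7 ± 12.0 RPKM, Phlgi1_129839 with 41.9 ± 14.3, Phlgi1_110266 with 27.5 ± 0.709, Phlgi1_77659 with 22.6 ± 6.13 and Phlgi1_29483 with 15.5 ± 4.63 (SD, n = 3 each). The first 2 did not overlap with any other, whereas the range of Phlgi1_77659 reached those of Phlgi1_110266 and Phlgi1_29483. In ELP it was Phlgi1_129839 with 224 ± 101 RPKM, Phlgi1_32068 with 107 ± 17.6, Phlgi1_110266 with 20.2 ± 3.09, Phlgi1_29483 with 17.2 ± 2.59 and Phlgi1_77659 with 11.3 ± 4.60 (SD, n = 3 each). There the last 3 overlapped with their neighbours, and the first 2 did not. In Glc the means were 233 ± 209 RPKM for Phlgi1_129839, 103 ± 118 for Phlgi1_110266, 55.5 ± 40.7 for Phlgi1_77659, 45.4 ± 19.1 for Phlgi1_32068 and 14.6 ± 11.9 for Phlgi1_29483 (SD, n = 2 each), and the span of Phlgi1_110266 overlapped that of each other MCO.

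Other genes of iron uptake and reduction were read from a list of 27 gene models, of which 26 were tested. In NELP against Glc, 6 were called higher and 3 lower (29.5% and 3.67% over all tested genes), with a median log2 fold change of 0.26 (0.54 over all tested genes). In ELP against Glc, 7 were called higher and 4 lower (37.3% and 5.14% over all tested genes), with a median of 0.13 (0.60 over all tested genes). The 9 calls for NELP became 3, 2, 5, 4 and 14 without NELP 1, NELP 2, NELP 3, ELP 2 and Glc 2, and the 11 calls for ELP became 7, 7, 6, 5 and 7 without NELP 1, NELP 2, ELP 1, ELP 2 and ELP 3. After rescaling, 2 were called higher and 6 lower in NELP (6.57% and 7.08% over all tested genes), and 2 higher and 8 lower in ELP (10.6% and 11.4%). Those called higher on both woods were Phlgi1_18080 and Phlgi1_81089, listed here as quinone reductases. Fits of the media compared alone called 2 for NELP, both higher, and 3 higher and 2 lower for ELP, with the share over all tested genes not counted. At an unadjusted p under 0.05 these fits had 50% of the list for NELP (38.4% over all tested genes). For ELP they had 38.5% of the list (42.4% over all tested genes). Between the woods limma called none, with 4 at an unadjusted p under 0.05 (16.3% over all tested genes). The fit of the wood libraries alone called 3, all higher in NELP: FTR1, the ferric reductase Phlgi1_96160 and the regulator Phlgi1_77373. Over all tested genes that fit called 6.12% higher and 4.28% lower in NELP.

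Phlgi1_96160, whose class makes ferrous iron at the cell surface, had the same order of media as FTR1. Its level was 128, 104 and 145 RPKM in NELP, 57.6, 73.0 and 78.7 RPKM in ELP, and 241 and 243 RPKM in Glc. No media overlapped, and the Glc libraries were nearly equal. Its log2 fold change was -0.96 ± 0.23 for NELP over Glc (adjusted p = 0.021), -1.80 ± 0.23 for ELP over Glc (adjusted p = 0.0029), and for NELP over ELP it was 0.84 ± 0.21 (adjusted p = 0.15, and 0.038 in the fit of the wood libraries alone).

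Phlgi1_77373 resembles GATA-type repressors of iron uptake such as URBS1 of *Ustilago maydis*. It stood at 53.3, 50.7 and 67.2 RPKM in NELP, 29.1, 37.2 and 35.4 RPKM in ELP, and 70.6 and 46.5 RPKM in Glc. ELP lay below both other media, and NELP lay within the Glc span. Its log2 fold change was -0.76 ± 0.26 in ELP over Glc (adjusted p = 0.046), -0.02 ± 0.26 in NELP over Glc (adjusted p = 0.96) and 0.74 ± 0.23 in NELP over ELP (adjusted p = 0.20, and 0.040 in the fit of the wood libraries alone).

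Of the remaining ferric reductases, Phlgi1_78922 had this order of means too, with 71.6 RPKM in NELP, 48.5 RPKM in ELP and 107 RPKM in Glc, but it was not called (log2 fold change -0.45 for NELP and -1.02 for ELP over Glc, adjusted p = 0.36 and 0.059). Phlgi1_123760 was called higher in ELP than in Glc (log2 fold change 1.41, adjusted p = 0.017), as was Phlgi1_125089 (0.87, adjusted p = 0.030), and their values in NELP were 1.01 (adjusted p = 0.061) and 0.76 (adjusted p = 0.056). The other 6 of the 9 ferric reductases were not called in this fit, though Phlgi1_126175 and Phlgi1_83405 were called lower on both woods and Phlgi1_78922 lower in ELP after rescaling. Rescaling also lost the calls of Phlgi1_123760 and Phlgi1_125089.

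Among 5 zinc/iron permeases, which joined the list by their annotation and are carriers of another family than FTR1, Phlgi1_114862 was called higher in NELP than in Glc (0.77, adjusted p = 0.023), as was Phlgi1_105108 (0.79, adjusted p = 0.0496), and Phlgi1_18557 was called higher in ELP (1.31, adjusted p = 0.028). After rescaling none of these permeases was called. Glycopeptides of the GLP type reduce ferric iron in *P. chrysosporium*. Their models differed in direction: Phlgi1_99429 was called higher on both woods before rescaling (1.48 for NELP and 1.55 for ELP, adjusted p = 0.044 and 0.030) and Phlgi1_220080 lower on both (-1.47 and -1.29, adjusted p = 0.015 and 0.016). Phlgi1_219719 was lower in NELP (-4.22, adjusted p = 0.038), but with 491 RPKM in Glc 1 and 24.9 RPKM in Glc 2.

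Quinone reductases keep hydroquinones, which reduce ferric iron, in supply. On both woods 3 of the 6 models listed as such were called higher, where over all tested genes 29.5% were in NELP and 37.3% in ELP. Of these, Phlgi1_18080 and Phlgi1_124588 have no function name and are annotated only as zinc-binding alcohol dehydrogenases. Among the models named as 1,4-benzoquinone reductases or as like them, only Phlgi1_81089 was called higher, and Phlgi1_309021 and Phlgi1_14295 were not called. The 1,4-benzoquinone reductase-like Phlgi1_81089 had 52.0, 64.7 and 51.1 RPKM in NELP, 85.2, 54.6 and 49.2 RPKM in ELP, and 3.43 and 8.11 RPKM in Glc. Wood and Glc were far apart, and the woods overlapped. Its log2 fold change was 3.27 ± 0.38 in NELP (adjusted p = 0.0029) and 3.41 ± 0.38 in ELP (adjusted p = 0.0021). Phlgi1_18080 followed with 1.34 for NELP and 1.52 for ELP (adjusted p = 0.0062 and 0.0030). Phlgi1_124588 had 0.83 for NELP and 0.66 for ELP (adjusted p = 0.029 and 0.049), and lost both calls after rescaling. The 1,4-benzoquinone reductase Phlgi1_11626 was not called before rescaling, at -0.18 for NELP and -0.93 for ELP (adjusted p = 0.72 and 0.076). After rescaling it was called lower in ELP (-1.59, adjusted p = 0.032).

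**Figure D4:**
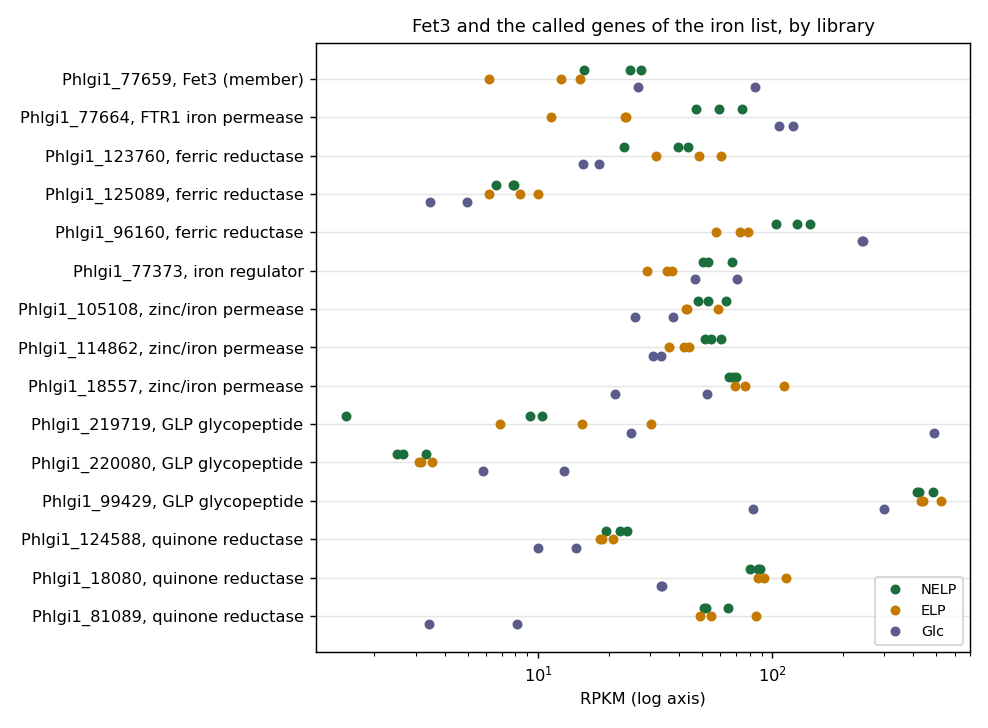
RPKM, on a log axis, of Fet3 and of the 14 genes of the iron list called in at least 1 comparison, with 1 point per library and NELP above ELP above Glc in each row. FTR1 and Phlgi1_96160 show 3 separate groups, with Glc at 106 and 123 RPKM and at 241 and 243 RPKM.

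Copper handling was read from 12 gene models picked by annotations that name copper or heavy metals, all tested. They include Phlgi1_479103, Phlgi1_497415 and Phlgi1_14178, with blue copper domains, and the ferric reductase-like Phlgi1_126175, which is also in the iron list. The list is therefore wider than the genes that supply copper to the MCOs. In NELP against Glc, 1 was called higher and 3 lower (29.5% and 3.67% over all tested genes), and in ELP against Glc, 0 higher and 2 lower (37.3% and 5.14%). The 4 calls for NELP became 2 without NELP 2, NELP 3 or ELP 2, and the 2 for ELP became 6 without Glc 1 and 5 without Glc 2. After rescaling 0 were called higher and 4 lower in NELP (6.57% and 7.08% over all tested genes), and 0 higher and 5 lower in ELP (10.6% and 11.4%). Between the woods limma called 0, with 0 at an unadjusted p under 0.05. Among the Ctr copper transporters, of the family that carries copper into the cell, only Phlgi1_63716 was called. It had 136, 114 and 68.0 RPKM in NELP, 150.0, 157 and 109 RPKM in ELP, and 407 and 201 RPKM in Glc. Both woods lay below Glc, and the woods overlapped. Its log2 fold change was -1.49 ± 0.40 in NELP over Glc (adjusted p = 0.027) and -1.06 ± 0.40 in ELP over Glc (adjusted p = 0.063). The other Ctr transporters were not called. Their values in NELP and ELP over Glc were -0.04 and 0.06 for Phlgi1_513419 and -0.02 and 0.10 for Phlgi1_74520. Those of Phlgi1_78910 were -0.19 and -0.61.

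Of the other called copper genes, Phlgi1_479103 and Phlgi1_497415, both with blue copper domains, were lower on both woods (-2.22 and -3.82 for NELP, adjusted p = 0.0024 and 0.0056, then -2.28 and -3.78 for ELP, adjusted p = 0.0020 and 0.0037). Phlgi1_451232, with the copper fist domain of copper-sensing transcription factors, was higher in NELP than in Glc (0.73, adjusted p = 0.038), at 0.44 in ELP (adjusted p = 0.14). That call was lost after rescaling. The other copper fist model, Phlgi1_16085, was not called, at 0.06 in NELP and -0.26 in ELP over Glc (adjusted p = 0.872 and 0.455). After rescaling it was called lower in ELP (-0.92, adjusted p = 0.032). The list's median log2 fold change was -0.11 in NELP and -0.47 in ELP over Glc, where those of all tested genes were 0.54 and 0.60.

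Among other lignin-related oxidases, 4 of 8 tested class II and generic peroxidases were called higher on each wood than in Glc, and 1 was called lower in NELP. For the dye-decolorizing peroxidases, 2 of 3 were called higher on each wood and 1 lower in ELP, and for the copper radical oxidases 1 of 6 was called higher in NELP, 3 of 6 higher in ELP and 1 lower on each wood. Over all tested genes, 29.5% were called higher and 3.67% lower in NELP, and 37.3% higher and 5.14% lower in ELP. After rescaling, 1 class II or generic peroxidase was called higher in NELP and 0 in ELP, 1 dye-decolorizing peroxidase was called higher and 1 lower in ELP, and 0 copper radical oxidases were called higher and 2 lower on each wood, where over all tested genes 6.57% were called higher and 7.08% lower in NELP, and 10.6% higher and 11.4% lower in ELP. In none of these lists did limma call a gene between the woods, and at an unadjusted p under 0.05 there were 0 of the peroxidases, 1 dye-decolorizing peroxidase and 1 copper radical oxidase. The fit of the wood libraries alone called 1 dye-decolorizing peroxidase and 1 copper radical oxidase, both lower in NELP, as it did for Phlgi1_129839. Over all tested genes that fit called 6.12% higher and 4.28% lower in NELP.

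The genes whose profile over the 8 libraries was most like that of Phlgi1_129839, by Pearson's r of log2 values among 1012 genes with a function name and a mean of at least 10 RPKM, were the GMC oxidoreductase Phlgi1_123211 (0.87), the cytochrome P450 Phlgi1_114194 (0.85), the 3-hydroxybenzoate 6-hydroxylase Phlgi1_96569 (0.80), the expansin-family Phlgi1_30354 (0.79) and the oligosaccharyl transferase Phlgi1_86473 (0.79). Over the 6 wood libraries alone these r were 0.71 to 0.98. Over the 8 libraries r with Phlgi1_129839 was 0.00 for Phlgi1_32068, -0.31 for Phlgi1_110266, -0.35 for Phlgi1_77659, -0.39 for Phlgi1_29483 and -0.33 for FTR1. Over the 6 wood libraries it was 0.40 for Phlgi1_32068, -0.92 for Phlgi1_110266, -0.81 for Phlgi1_77659, 0.15 for Phlgi1_29483 and -0.94 for FTR1. Those r include the difference between NELP and ELP. Within NELP, Phlgi1_129839 and Fet3 were both highest in NELP 2 and lowest in NELP 3. Within ELP these genes ran opposite. These r describe 8 libraries that share their media, and carry no test.

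Fet3 was most like a cytochrome c oxidase, Phlgi1_19584 (0.96), the ATP synthase genes Phlgi1_63599 (0.95) and Phlgi1_131025 (0.94), a cytochrome c, Phlgi1_109773 (0.93), and the heat shock protein Phlgi1_18607 (0.93). FTR1 was 21st, with r = 0.86. Over the 7 libraries without Glc 1, r was 0.93 for FTR1 and 0.81 to 0.90 for those 5 genes. Phlgi1_110266 was most like the genes of triose phosphate isomerase, Phlgi1_102987 (0.996), phosphopyruvate hydratase, Phlgi1_129689 (0.99), and phosphoglycerate kinase, Phlgi1_110573 (0.98), followed by the ATP synthase genes Phlgi1_115984 and Phlgi1_66473 (0.98 and 0.97). Glc 1 also weighs on these values: over the 7 other libraries those of Phlgi1_102987, Phlgi1_129689 and Phlgi1_110573 were 0.93, 0.80 and 0.53. Whether the state of that culture or library bears on the profile of Phlgi1_110266 was not tested.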

How the data were processed

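Poly-A RNA of 3 NELP, 3 ELP and 2 Glc cultures was sequenced on an Illumina HiSeq2000. The deposited RPKM values were made by the authors, who mapped reads with SeqNGen and, in QSeq, normalized them to the length of each gene and the size of the library; the submitters' processing notes name CASAVA 1.8.2. How reads shared by similar genes were treated is not stated. Of 11892 gene models, 11891 have values. No column of the table was left out of the 8 mapped to samples.

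The program limma 3.58.1 (R 4.3.3) was run on log2(RPKM + 0.5) for all media together, keeping genes that averaged 1 RPKM or more. The fit was tested on simulated data in which all libraries had the spread of NELP, so that test says nothing of the wider spread of Glc. Depth in reads is unknown. Relative depth was estimated from the spacing of low values with 6 upper limits, and the limit was chosen after their outcomes were seen: 1.5 and 2 RPKM gave 1 to 1.79 in NELP, 0.583 to 0.705 in ELP and 0.772 to 1.38 in Glc, whereas limits of 0.4, 0.6 and 0.8 doubled ELP 1 (1.17) and limits of 0.4 and 1 doubled ELP 3 (1.37). It was used in no test.

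Every MCO is named, as is every gene of the iron and copper lists called in some comparison; peroxidases, dye-decolorizing peroxidases and copper radical oxidases are given by counts, and likeness by the 5 highest r. The members and lists were chosen with earlier results of these data known. Neighbours were read from the order of genes in GenBank's annotation of the assembly after the tables had been seen, through the alternative model numbers in the study's supplement for Phlgi1_129839 and Phlgi1_110266. Alternatives were a pseudocount of 1 or 0.1, no filter, a mean of at least 10 RPKM, median-ratio rescaling, the compared media alone, a trended robust prior, a replicate block and leaving out each library; those for FTR1 and the likeness without Glc 1 or without Glc were added after seeing the data. The labels describe the replicates as separate cultures, and p-values measure the spread between them. Protein and promoter sequences were not used here.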

Additional observations from a re-analysis of the deposited data

How the results depend on the processing

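Over 15 results (5 MCOs in 3 comparisons) and 16 alternatives each, 201 of 240 outcomes kept their direction and their side of the threshold, 21 lost a call, 8 gained one and 10 changed sign; except where a change follows from fewer libraries or genes, the cause was not tested. The Glc libraries lie far apart for many genes, and fits without one of them rest on a single Glc library and on the spread of the woods. FTR1 in ELP over Glc was called under all 16 alternatives. The depth in reads, which limits low values, is unknown. The 2 MCOs called in NELP against Glc became 1 with no filter, 1 after rescaling, 0 with only the media compared and 0 to 3 with a library left out. The 2 in ELP against Glc became 1 after rescaling, 0 with only the media compared and 2 to 3 with a library left out. In NELP against ELP, 0 became 1 with only the media compared and 0 to 1 with a library left out. For Phlgi1_129839, NELP over Glc stayed at -2.14 but lost its call with no filter and with only the media compared (adjusted p = 0.067 and 0.083), and ran from -3.22 to -1.06 with a library left out. Its ELP over Glc was -0.45 after rescaling and -0.87 to 1.29 with a library left out. Its NELP over ELP, -2.35, was called with only the media compared and ran from -2.70 to -2.02 with a library left out. Phlgi1_29483 turned to -0.28 in NELP and -0.17 in ELP over Glc after rescaling, and ran from -0.60 to 1.20, from -0.42 to 1.38 and, between the woods, from -0.40 to 0.0099 with a library left out. Phlgi1_110266 over Glc reached -2.74 and 0.47 at its extremes for NELP, and -3.19 and 0.018 for ELP. The iron list's 9, 11 and 0 calls (NELP over Glc, ELP over Glc, NELP over ELP) became 2, 5 and 3 with only the media compared, and 2 to 14, 5 to 14 and 0 to 3 with a library left out. The copper list's 4 and 2 calls became 2 and 2 with only the media compared, 4 and 5 after rescaling, and 2 to 6 in each with a library left out. The ratio of Phlgi1_129839 to Phlgi1_110266 kept its direction throughout, at -3.20 to -2.34 with a library left out.

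Whether replicate numbers pair the cultures cannot be told from so few pairs, and the main fit leaves the numbers out. Deviations from the medium's mean correlated between NELP and ELP libraries of the same number at 0.40, -0.15 and 0.50. Between libraries of different numbers the correlations ran from -0.53 to 0.28. With the replicate block, 1 MCO in place of 2 was called in NELP against Glc (the call of Phlgi1_32068 was lost, at an adjusted p of 0.052, and Phlgi1_129839 stayed called, at 0.034), and no other count of called MCOs moved.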
